A study of Caenorhabditis elegans with 40 samples.

Results

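The 40 genes described here act in the germline of Caenorhabditis elegans, from the maintenance of its stem cells to meiotic recombination. They were taken by name from the deposited tables, which hold 42048 features, and all 40 names were found. Ordered by role, they are 7 genes of the stem cell and mitosis-meiosis decision (glp-1, fbf-1, fbf-2, gld-1, gld-2, gld-3 and nos-3), 7 of P granules (glh-1 to glh-4, pgl-1, pgl-3 and deps-1) and 5 germline Argonautes (prg-1, wago-1, csr-1, alg-3 and alg-4). Meiotic chromosome structure is covered by 5 axis and cohesin genes (him-3, htp-1, htp-2, htp-3 and rec-8) and 4 genes of the synaptonemal complex (syp-1 to syp-4). Homologue pairing is covered by 5 genes (him-8, zim-1, zim-2, zim-3 and chk-2), recombination by 4 (spo-11, rad-51, msh-5 and him-17) and germline chromatin by 3 (mes-2, mes-3 and mes-4).

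Polyadenylated RNA of whole animals was sequenced in 40 libraries, 5 from each of 8 groups. The mutants carried octr-1(ok371) and the wild type was N2; octr-1 encodes a G protein-coupled receptor for octopamine. Both genotypes, fed E. coli OP50, were sampled old at each of 3 temperatures (15, 20 and 25 °C) and young at 20 °C. The old animals kept at 15 °C were taken on day 24, those kept at 20 °C on day 14 and those kept at 25 °C on day 9, so among them temperature and age in days cannot be told apart. The labels give 1 mutant allele and do not say whether replicates came from separate cultures, so p-values measure the spread between these libraries, which may be technical.

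Libraries held 27.9 to 41 M reads assigned to genes. octr-1 itself had 10 to 19 reads in young mutants against 27 to 51 in young wild-type libraries, and 30 to 51 reads in old mutants against at least 175 in every old wild-type library. Counts per gene do not show where in octr-1 the remaining reads fell. Every marker gene of intestine, body wall muscle, hypodermis, neurons, somatic gonad and oocytes used here was detected in all 8 groups, and 4 or 5 of 65 sperm markers were at 0 in all 5 libraries of a group. In bulk RNA, fewer germ cells and less RNA per germ cell cannot be told apart. In the deposited table of both old mutant groups at 25 and 20 °C, each of the 10 columns held the values that 2 further tables give to the opposite temperature, so these libraries were taken by their names in the tables of mutants against wild type.

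The adult hermaphrodite germline is ordered along its length. At its distal end, Notch signalling through the receptor GLP-1 and the PUF-domain RNA-binding proteins FBF-1 and FBF-2 keep stem cells dividing. The translational repressor GLD-1, the cytoplasmic poly(A) polymerase GLD-2 with its partner GLD-3, and the Nanos-family protein NOS-3 drive entry into meiosis. P granules are RNA-rich bodies around germ cell nuclei, built from PGL proteins and Vasa-like GLH helicases, in which Argonautes such as the Piwi protein PRG-1, WAGO-1 and CSR-1 act with small RNAs. ALG-3 and ALG-4 are Argonautes of spermatogenesis. In meiosis, HORMA-domain proteins and the cohesin REC-8 form chromosome axes, zinc-finger proteins and the kinase CHK-2 mediate pairing, SYP proteins zip homologues together, and SPO-11 makes the breaks that RAD-51 and MSH-5 turn into crossovers. MES-2 and MES-3 belong to the Polycomb complex that methylates histones, and MES-4 is another histone methyltransferase of the germline.

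No member is annotated on the X chromosome, which carries 13.74% of the protein-coding genes in the files, whereas 14 of the 40 lie on chromosome IV and 13 on chromosome I. The pairing genes him-8, zim-1, zim-2 and zim-3 are neighbours on chromosome IV. The annotated spans of 9 members, introns included, overlap a coding gene on the opposite strand, among them spo-11 (enpl-1), syp-3 (mrt-1) and him-3 (prkl-1). Spans of 4 overlap one on the same strand, as zim-1 and zim-2 do with each other. Whether exons overlap was not examined. The strand setting of the counting and the treatment of multi-mapped reads are not given in the sources used here. Single values of these genes, and of the near-identical pairs fbf-1 and fbf-2 or htp-1 and htp-2, are uncertain to that extent.

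Levels per exon length (RPKM, reads scaled to library total and exon length) differed widely among the members. In young wild-type animals wago-1 (635 RPKM) and gld-1 (593 RPKM) were the highest members, followed by glh-1 (409 RPKM) and pgl-1 (385 RPKM), scaled by trimmed mean of M values (TMM) over the 40 libraries. The same 4 genes led in young mutants, where gld-1 stood at 569 RPKM, wago-1 at 549.6 RPKM, glh-1 at 379.7 RPKM and pgl-1 at 359 RPKM. At the other end, alg-3 and alg-4 averaged between 0.262 and 2.0 RPKM in the 8 groups, and chk-2 between 4.82 and 11.5 RPKM. The fewest reads of any member in a library were 12, of alg-3 and of alg-4 in young wild-type libraries.

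Every member passed the filter on low values in each comparison. A member was called changed at an adjusted p under 0.05, adjusted over all genes tested. Normalized reads are reads divided by the size factor of their library within a table. Genotypes were first compared in young adults. Young mutants had lower RNA of most members, by small amounts, and higher RNA of the sperm Argonautes: 3 members were higher and 26 lower of 40, where 43.6% of the genes tested were called, 19.6% higher and 24% lower. The median log2 fold change of the members was -0.13 (normalized reads of that table), against -0.01 over all genes tested, and the share called lower was well above that of all genes. With library size as the only scaling, the median of all genes moved to 0.09, that of the members to -0.03, and 13 members were called (3 higher and 10 lower). In either scaling 5 of 40 members lay above the median of all genes.

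Among stem cell genes, 0 higher and 3 lower of 7 were called in young mutants. The Notch receptor glp-1 had 6781, 6514, 6628, 6516 and 6166 normalized reads in young mutants, against 7009.6, 7701, 7480.0, 7520.4 and 7505 in young wild type. All 5 mutant libraries lay below the wild-type ones (log2 fold change -0.19 ± 0.04 SE, limma adjusted p = 0.000606), although the call was lost with library size as the only scaling (adjusted p = 0.0617). gld-3 and nos-3 were also lower (-0.20 ± 0.04 and -0.12 ± 0.04), while fbf-1 (-0.09 ± 0.05), fbf-2 (-0.11 ± 0.06), gld-1 (-0.10 ± 0.04) and gld-2 (-0.08 ± 0.03) did not pass the test.

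P granule genes were lower without exception at the deposited scaling (0 higher and 7 lower of 7, median -0.16), and 0 higher and 3 lower with library size alone. The Vasa-like helicase glh-4 had 7494, 7319, 7583, 6963 and 7333 normalized reads in young mutants, against 8631, 8591, 8497, 8819.7 and 9366 in young wild type. deps-1, needed for P granule assembly, had 7469, 8432, 8447, 7737 and 7542 normalized reads in young mutants, against 9076, 8937, 9316, 10231 and 10706 in young wild type. In both genes every mutant library stood below every wild-type library (log2 fold change -0.26 ± 0.04 SE, limma adjusted p = 4.95e-05 for glh-4; log2 fold change -0.28 ± 0.05 SE, limma adjusted p = 0.000618 for deps-1). The Argonautes wago-1 (-0.25 ± 0.04), csr-1 (-0.21 ± 0.03) and prg-1 (-0.23 ± 0.04) fell by similar amounts.

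In the opposite direction went the sperm Argonautes. alg-3 had 63.1, 32.4, 60.6, 55.1 and 85.6 normalized reads in young mutants, against 38, 17.9, 19.2, 34 and 12.8 in young wild type. alg-4 had 54.7, 38.3, 73.7, 71.0 and 76.7 normalized reads in young mutants, against 38.9, 12.5, 13.5, 25.2 and 22.4 in young wild type. Both are low, and the highest wild-type library, replicate 1, overlapped the lowest mutant library, replicate 2 (log2 fold change 1.30 ± 0.30 SE, limma adjusted p = 0.00407 for alg-3; log2 fold change 1.51 ± 0.28 SE, limma adjusted p = 0.000905 for alg-4). Of the sperm marker genes tested, 40 were higher and 2 lower of 47, and their summed level in CPM (reads scaled to a common library total by TMM over the 40 libraries) was 210.3 to 401 CPM in young mutants, against 114 to 204 CPM in young wild type. The oocyte and eggshell markers had 21 of 25 lower and none higher. The part of sperm and oocyte numbers in the members' values was not tested.

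For the meiotic machinery, all axis and cohesin genes fell in young mutants (5 of 5, median -0.16; 0 higher and 1 lower with library size alone), led by htp-1 (log2 fold change -0.20 ± 0.04 SE, limma adjusted p = 0.000501). Of the synaptonemal genes, syp-4 alone was called (-0.18 ± 0.04). chk-2, the kinase of pairing, had 615, 580.2, 598, 585 and 576 normalized reads in young mutants, against 755, 694, 667, 748 and 755 in young wild type. Its groups did not overlap (log2 fold change -0.29 ± 0.05 SE, limma adjusted p = 0.000336). him-8 was also lower (-0.14 ± 0.05) and zim-2 higher (0.13 ± 0.05), with overlapping groups. Recombination genes counted 0 higher and 3 lower of 4, among them him-17 (log2 fold change -0.23 ± 0.03 SE, limma adjusted p = 3.88e-05), and the MES genes 0 higher and 2 lower of 3.

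Other genes of these pathways were lower in young mutants as well, by limma at the deposited scaling. Their lists were not counted with library size alone. Called lower were 10 of 18 genes of the niche and germ cell fate, 10 of 17 of P granules and small RNA, 23 of 38 of meiosis, 6 of 7 of germline chromatin and 11 of 15 of DNA replication. Of all genes tested, 24% were called lower and 19.6% higher. Genes called higher in these lists are not counted here. Examples were the sperm-fate gene fog-1 (log2 fold change -0.38 ± 0.05, adjusted p = 4.29e-05) and the nuclear Argonaute hrde-1 (log2 fold change -0.31 ± 0.04, adjusted p = 7.07e-06), both by limma.

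**Figure D1:**
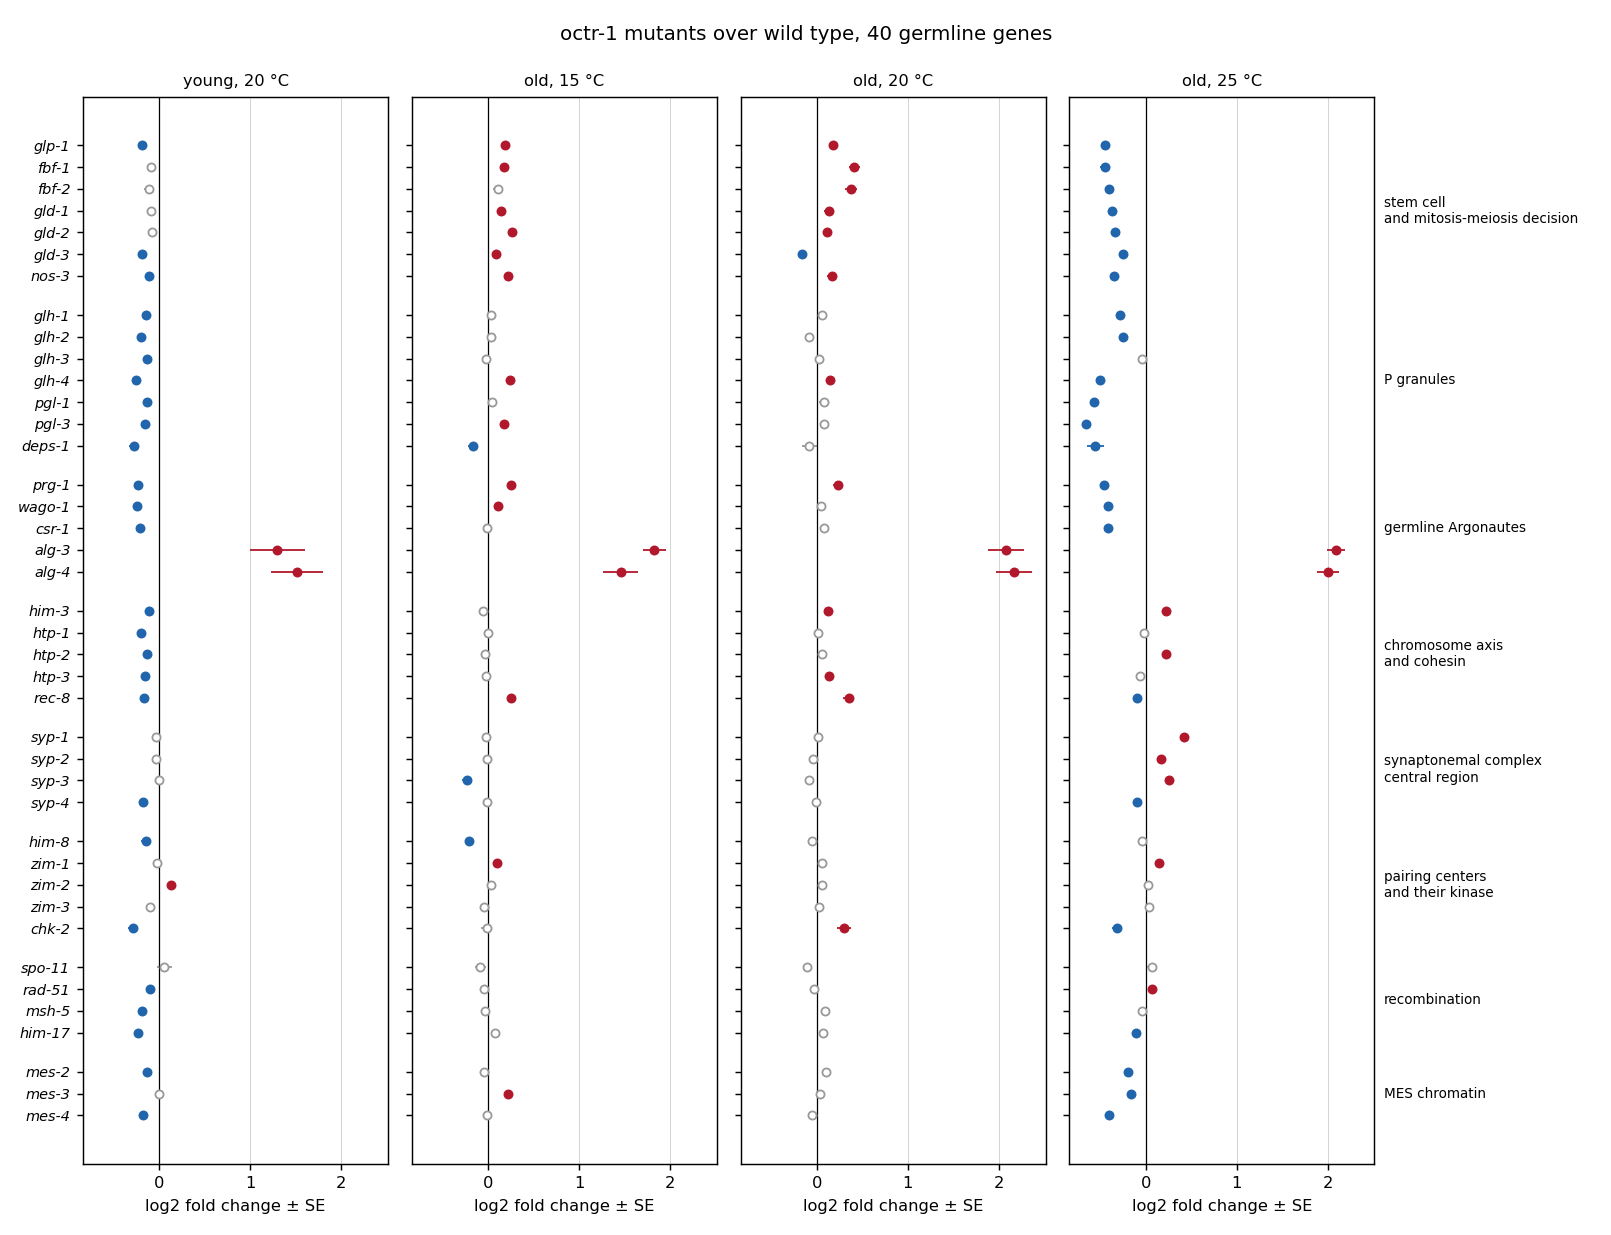
log2 fold change ± SE (limma) of the 40 genes, octr-1 mutants over wild type, by role, in young adults at 20 °C and old adults at 15, 20 and 25 °C. Filled points passed an adjusted p under 0.05 (red higher, blue lower in mutants), open grey points did not; alg-3 and alg-4 stand far to the right in each panel, and the stem cell and P granule genes lie left of 0 in old animals at 25 °C.

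Old mutants at 20 °C, on day 14, did not show this general lowering. Called members numbered 14 higher and 1 lower of 40, where 47.5% of the genes tested were called, 22.8% higher and 24.7% lower. Their median log2 fold change was 0.07, against -0.01 for all genes, and 30 of 40 lay above the median of all genes. The share called higher was above that of all genes and the share called lower far under it. The calls sat mainly in stem cell genes (6 higher and 1 lower of 7) and Argonautes (3 higher and 0 lower of 5).

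glp-1 had 10597, 10406, 10184, 10301 and 9717 normalized reads in old mutants, against 8987, 8948, 9672, 8332 and 9212 in old wild type at 20 °C. fbf-1, which keeps germ cells in the stem cell state, had 1612, 1724, 1637, 1600.1 and 1549.8 normalized reads in old mutants, against 1315, 1114, 1284, 1064 and 1358 in old wild type. Mutant libraries of both genes were above all wild-type libraries (log2 fold change 0.18 ± 0.04 SE, limma adjusted p = 0.000868 for glp-1; log2 fold change 0.41 ± 0.06 SE, limma adjusted p = 1.79e-05 for fbf-1). fbf-2 was likewise higher (log2 fold change 0.38 ± 0.06 SE, limma adjusted p = 5.6e-05). gld-3, the partner of the poly(A) polymerase, went the other way with 14550.3, 13750.4, 14087, 14047 and 13198 normalized reads in old mutants, against 14874, 15846, 16018, 15889 and 15187 in old wild type. It was the lone member called lower, without overlap (log2 fold change -0.16 ± 0.04 SE, limma adjusted p = 0.00118).

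The sperm Argonautes showed the largest differences among the members in old animals. alg-3 had 190.4, 199, 162, 215 and 204 normalized reads in old mutants, against 80.5, 38.4, 36.6, 30.9 and 52.3 in old wild type at 20 °C. alg-4 had 128, 155, 136, 175 and 160.1 normalized reads in old mutants, against 46.6, 36.3, 38.8, 17 and 32.6 in old wild type. The lowest mutant library held more than the highest wild-type library for either gene (log2 fold change 2.08 ± 0.20 SE, limma adjusted p = 4.37e-07 for alg-3; log2 fold change 2.17 ± 0.19 SE, limma adjusted p = 1.06e-07 for alg-4). prg-1, the Piwi Argonaute, rose by a small amount (log2 fold change 0.23 ± 0.05 SE, limma adjusted p = 0.0018), and wago-1 (0.05 ± 0.04) and csr-1 (0.08 ± 0.04) did not pass.

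Among meiotic genes, rec-8 cohesin (log2 fold change 0.35 ± 0.06 SE, limma adjusted p = 6.92e-05), him-3 (0.13 ± 0.03), htp-3 (0.14 ± 0.05) and chk-2 (0.30 ± 0.07) were called higher. Replicates 2 and 4 of old wild type were both low in rec-8 (3214 and 3014 normalized reads, the others 3786 to 3870). The same held in htp-3 (5273 and 4828, the others 5850 to 5873), chk-2, fbf-1 and prg-1. The other htp-3 libraries of the wild type lay within the mutant range (5790 to 6153). Leaving out both replicates together was not tested. The synaptonemal, recombination and MES genes lay between -0.11 (spo-11) and 0.10 (mes-2) on the log2 fold scale and did not pass the test at 20 °C. Of the genes of niche and germ cell fate, 9 higher and 0 lower of 18 were called, led by fog-1 (log2 fold change 0.43 ± 0.05, adjusted p = 3.8e-07, limma). Sperm markers counted 44 higher and 0 lower of 48, with a summed level of 121 to 132 CPM in old mutants, against 55.3 to 69.5 CPM in old wild type, and oocyte markers 2 higher and 12 lower of 25. Summed markers of hypodermis (29.6 to 33.4 CPM in old mutants, against 50.3 to 67.1 CPM in old wild type), intestine (998 to 1121 CPM in old mutants, against 1193 to 1446 CPM in old wild type) and somatic gonad (209 to 213 CPM in old mutants, against 224 to 247 CPM in old wild type) were lower without overlap. Early embryo markers were also lower (13.3 to 15.7 CPM in old mutants, against 18.0 to 24.1 CPM in old wild type). The part of these cells in the values of alg-3, alg-4 and the other members was not tested, here or at 15 °C.

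At 15 °C, on day 24, old mutants had 15 members higher and 3 lower of 40, where 51.1% of the genes tested were called, 24.1% higher and 27% lower. The median was 0.03, against -0.01 for all genes. Stem cell genes held most of the higher calls outside the Argonautes (6 higher and 0 lower of 7 and 4 higher and 0 lower of 5). glp-1 had 9543, 10724, 10354, 10071 and 9669 normalized reads in old mutants, against 9143, 8919, 8948, 8758 and 8361 in old wild type. gld-2, the poly(A) polymerase, had 7787, 8549, 8490.4, 8269 and 8651 normalized reads in old mutants, against 6855, 6707, 7322, 7068 and 6710.2 in old wild type. No library of one genotype fell among those of the other (log2 fold change 0.19 ± 0.04 SE, limma adjusted p = 0.000341 for glp-1; log2 fold change 0.27 ± 0.04 SE, limma adjusted p = 8.6e-06 for gld-2).

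alg-3 had 219, 212, 267, 205 and 212 normalized reads in old mutants, against 57.8, 47.0, 72.7, 82.3 and 55.3 in old wild type at 15 °C. alg-4 had 161, 166, 199, 112.96 and 139.8 normalized reads in old mutants, against 38.6, 45, 81.9, 61.7 and 57.9 in old wild type. Mutants stood above the wild type in every library (log2 fold change 1.83 ± 0.13 SE, limma adjusted p = 4.28e-09 for alg-3; log2 fold change 1.46 ± 0.19 SE, limma adjusted p = 1.82e-05 for alg-4). Sperm markers were 41 higher and 0 lower of 46, with sums of 126 to 167 CPM in old mutants, against 70.3 to 94.0 CPM in old wild type. Summed markers of hypodermis (15.4 to 22.1 CPM in old mutants, against 28.2 to 39.8 CPM in old wild type) and somatic gonad (124 to 143 CPM in old mutants, against 157 to 170.2 CPM in old wild type) were lower without overlap. Those of neurons were higher (421 to 434 CPM in old mutants, against 352 to 393 CPM in old wild type), intestine markers counted 0 higher and 9 lower of 11, and oocyte markers 12 higher and 1 lower of 25. The part of these cells in the members' values at 15 °C was not tested. him-8, which pairs the X chromosomes, had 1916, 1689, 1739.9, 1684 and 1686 normalized reads in old mutants, against 2023, 2068, 1939, 2032 and 1998 in old wild type. This was the lone fall without overlap at 15 °C (log2 fold change -0.21 ± 0.04 SE, limma adjusted p = 0.000427). syp-3 (-0.23 ± 0.05) and deps-1 (-0.17 ± 0.05) were also lower, with overlap, and rec-8 (log2 fold change 0.25 ± 0.04 SE, limma adjusted p = 1.93e-05) and mes-3 (log2 fold change 0.22 ± 0.03 SE, limma adjusted p = 3e-05) higher.

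**Figure D2:**
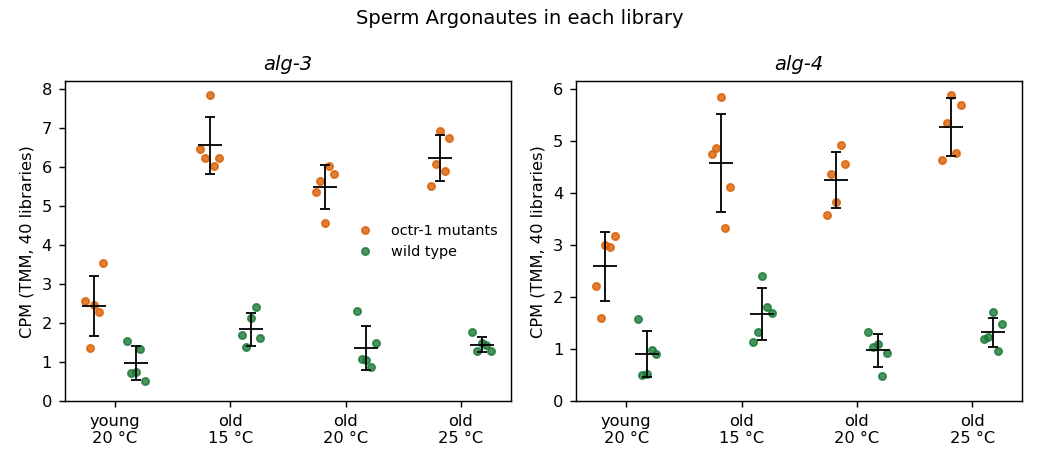
Level of alg-3 and alg-4 in each of the 40 libraries (CPM, TMM over 40 libraries), octr-1 mutants beside wild type. Points are libraries and bars mean ± SD (n = 5); alg-3 averaged 2.45 CPM in young mutants and 5.48 to 6.56 CPM in old mutants, against 0.979 CPM in young and 1.37 to 1.85 CPM in old wild type.

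At 25 °C, on day 9, the role groups moved in different directions in old mutants. All 7 stem cell genes and 6 of 7 P granule genes were lower in mutants, as were prg-1, wago-1, csr-1 and the 3 MES genes, while syp-1, syp-2, syp-3, him-3 and htp-2 were higher. In all, 9 members were higher and 23 lower of 40, where 76.5% of the genes tested were called, 36.8% higher and 39.7% lower; the members' median was -0.13, against -0.01 for all genes. The share called lower was above that of all genes, and the share called higher under it. Library size as the only scaling moved the median of all genes to 0.20 and turned the split to 20 higher and 15 lower. Under it the stem cell genes were still 0 higher and 6 lower and the P granule genes 1 higher and 5 lower, the MES genes 0 higher and 1 lower, and the axis (5 higher and 0 lower), synaptonemal (4 higher and 0 lower), pairing (4 higher and 0 lower) and recombination genes (4 higher and 0 lower) were higher. None of the 7 stem cell genes, 7 P granule genes or 3 MES genes lay above the median of all genes in either scaling.

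glp-1 had 7622, 7652, 7907, 6868 and 8657 normalized reads in old mutants, against 10412, 10399.5, 10722, 10457 and 10637 in old wild type at 25 °C. The highest mutant library was below the lowest wild-type one (log2 fold change -0.45 ± 0.04 SE, limma adjusted p = 1.5e-09). fbf-1 (-0.45 ± 0.06), fbf-2 (-0.40 ± 0.04), gld-1 (log2 fold change -0.37 ± 0.03 SE, limma adjusted p = 3.98e-10), nos-3 (-0.35 ± 0.03), gld-2 (-0.34 ± 0.03) and gld-3 (-0.25 ± 0.03) were lower as well, each without overlap of the groups.

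pgl-3, a P granule scaffold protein, had 5259.9, 5367, 5122, 5052 and 5195 normalized reads in old mutants, against 8418, 8081, 8147, 7889 and 8408 in old wild type. Its relative pgl-1 had 16775, 16713, 15500.3, 15567 and 16274 normalized reads in old mutants, against 23271, 23188, 25116, 23650.4 and 24448 in old wild type. deps-1 had 8013, 7104, 7346, 6163 and 6911 normalized reads in old mutants, against 8996, 9562, 12328, 10209.6 and 11192 in old wild type. These were the 3 deepest falls among the members, and in none did the groups overlap (log2 fold change -0.66 ± 0.03 SE, limma adjusted p = 1.12e-15 for pgl-3; log2 fold change -0.57 ± 0.03 SE, limma adjusted p = 6.95e-14 for pgl-1; log2 fold change -0.55 ± 0.09 SE, limma adjusted p = 0.000329 for deps-1). glh-4 (-0.50 ± 0.03), glh-1 (-0.28 ± 0.03) and glh-2 (-0.25 ± 0.03) fell too, and glh-3 did not pass (-0.04 ± 0.03). Of the Argonautes, prg-1 (-0.45 ± 0.04), csr-1 (-0.42 ± 0.03) and wago-1 (log2 fold change -0.41 ± 0.03 SE, limma adjusted p = 2.85e-12) were lower.

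alg-3 had 198, 219, 249, 211 and 242 normalized reads in old mutants, against 62.6, 46.1, 53.3, 50.7 and 45.8 in old wild type at 25 °C. alg-4 had 167, 193, 211, 171 and 204 normalized reads in old mutants, against 42.5, 43.8, 61.6, 34.4 and 53.2 in old wild type. Again no wild-type library reached the mutants (log2 fold change 2.10 ± 0.10 SE, limma adjusted p = 2.64e-15 for alg-3; log2 fold change 2.004 ± 0.12 SE, limma adjusted p = 5.71e-13 for alg-4). syp-1, of the central region of the synaptonemal complex, had 7818, 7304, 7889, 7570.4 and 8070.5 normalized reads in old mutants, against 5917, 5795, 5708, 5704 and 5734 in old wild type. All mutant libraries were above the wild type (log2 fold change 0.42 ± 0.03 SE, limma adjusted p = 1e-11). syp-3 (0.26 ± 0.03) and syp-2 (0.17 ± 0.03) were also higher, whereas syp-4 was lower (-0.09 ± 0.03) and changed sign to a rise with library size alone. him-3 and htp-2, both axis proteins, rose (0.23 ± 0.03 and 0.23 ± 0.04), rec-8 fell (-0.09 ± 0.04), and htp-1 and htp-3 did not pass. With library size alone all of the axis and cohesin genes, rec-8 among them, were called higher. chk-2 fell (-0.32 ± 0.06) and zim-1 rose (0.15 ± 0.03).

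At the deposited scaling, other lists of germline genes moved with the stem cell genes at 25 °C. They were not counted with library size alone, which turned the members' split. DNA replication and cell cycle genes, which dividing germ cells need, were 0 higher and 14 lower of 15, among them mcm-2 (log2 fold change -0.88 ± 0.03, adjusted p = 7.8e-18, limma) and mcm-7 (log2 fold change -0.79 ± 0.04, adjusted p = 2.07e-15, limma). Genes of niche and fate were 2 higher and 12 lower of 18, of P granules and small RNA 4 higher and 11 lower of 17, of meiosis 6 higher and 24 lower of 38 and of germline chromatin 0 higher and 6 lower of 7. Oocyte and eggshell markers were 0 higher and 25 lower of 25, with sums of 13270 to 14372 CPM in old mutants, against 19600 to 20708 CPM in old wild type, and sperm markers 47 higher and 1 lower of 50 (154 to 169 CPM in old mutants, against 83.8 to 89.3 CPM in old wild type). Markers of hypodermis (1 higher and 9 lower of 10, median -2.77), intestine (0 higher and 10 lower of 11, median -0.80) and body wall muscle (1 higher and 8 lower of 10, median -0.61) were lower too, and those of neurons mainly higher (7 higher and 2 lower of 10). Early embryo markers summed to 8.15 to 8.44 CPM in old mutants, against 9.30 to 11.2 CPM in old wild type. The part of these tissues and of embryos in the members' values was not tested.

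Differences between genotype effects were then tested as interactions in edgeR on recovered reads. Each uses 4 groups, and the tests share libraries with each other and with the comparisons above. Genotype effects printed beside an interaction are limma values from tables scaled separately, so they need not subtract exactly to it. Relative to young adults, the octr-1 effect in old animals at 20 °C was more positive in 24 members and more negative in 0 of 40, where 27.8% of the genes tested were called, 11.1% higher and 16.7% lower by the same test. The median difference was 0.20, against -0.05 for all genes, and with library size alone the counts were 18 higher and 0 lower. By role, the axis genes (5 higher and 0 lower of 5), stem cell genes (6 higher and 0 lower of 7) and P granule genes (5 higher and 0 lower of 7) held most of these calls. glp-1 had a genotype effect of 0.18 ± 0.04 in old and -0.19 ± 0.04 in young animals (interaction 0.36 ± 0.05, edgeR adjusted p = 4.69e-06). For chk-2 the effects were 0.30 ± 0.07 in old and -0.29 ± 0.05 in young animals (interaction 0.58 ± 0.09, edgeR adjusted p = 1.45e-05). rec-8 had 0.35 ± 0.06 in old and -0.17 ± 0.04 in young animals (interaction 0.50 ± 0.07), and fbf-1 0.41 ± 0.06 in old and -0.09 ± 0.05 in young (interaction 0.48 ± 0.08). The interactions of alg-3 (0.71 ± 0.39) and alg-4 (0.64 ± 0.35) did not pass (edgeR adjusted p = 0.189 and 0.188).

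Between old animals at 25 and 20 °C, the genotype effect was more positive at 25 °C in 8 members and more negative in 22 of 40, where 54.8% of the genes tested were called, 26.8% higher and 27.9% lower. The median over the 40 genes was -0.16, against 0.04 for all genes; library size alone gave 15 higher and 16 lower with a median of all genes of 0.20. Stem cell genes (0 higher and 6 lower of 7) and P granule genes (0 higher and 6 lower of 7) were on the negative side (1 higher and 6 lower and 1 higher and 4 lower with library size alone), and synaptonemal genes on the positive side (3 higher and 0 lower of 4). fbf-1 had a genotype effect of -0.45 ± 0.06 at 25 °C and 0.41 ± 0.06 at 20 °C (interaction -0.83 ± 0.09, edgeR adjusted p = 1.83e-09). fbf-2 had -0.40 ± 0.04 at 25 °C and 0.38 ± 0.06 at 20 °C (interaction -0.75 ± 0.07), pgl-3 -0.66 ± 0.03 and 0.08 ± 0.05 (interaction -0.71 ± 0.06), and glp-1 -0.45 ± 0.04 and 0.18 ± 0.04 (interaction -0.60 ± 0.06). In the positive direction stood syp-1 with 0.42 ± 0.03 at 25 °C and 0.01 ± 0.04 at 20 °C (interaction 0.43 ± 0.05, edgeR adjusted p = 2.58e-09), syp-3 (interaction 0.37 ± 0.06) and syp-2 (interaction 0.24 ± 0.05).

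Fewer members differed in genotype effect between 15 and 20 °C: 2 were more positive and 7 more negative of 40 at 15 °C, where 20.5% of the genes tested were called, 7.94% higher and 12.5% lower. The members' shares were near these, so the counts do not set them apart from other genes. gld-3 (0.24 ± 0.05) and mes-3 (0.16 ± 0.05) were the 2 positive ones, and chk-2 (-0.33 ± 0.10), fbf-2 (-0.28 ± 0.08) and fbf-1 (-0.25 ± 0.08) the largest of the negative calls. The fbf-1 call was lost, at -0.21 to -0.23, without replicate 2 of old wild type at 20 °C, replicate 3 of old mutants at 20 °C, or replicate 2, 4 or 5 of old mutants at 15 °C. The count of called members fell to 5 without replicate 2 or replicate 5 of old mutants at 15 °C. glp-1 did not pass (-0.01 ± 0.05, edgeR adjusted p = 0.942).

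Between 15 and 25 °C the genotype effect was more positive at 15 °C in 22 members and more negative in 8 of 40, where 57.4% of the genes tested were called, 26.7% higher and 30.7% lower; with library size alone the counts were 17 higher and 18 lower, and the stem cell genes were 7 higher and 0 lower. All 7 stem cell genes and 6 of 7 P granule genes were on the positive side. pgl-3 had 0.18 ± 0.05 at 15 °C and -0.66 ± 0.03 at 25 °C (interaction 0.82 ± 0.05, edgeR adjusted p = 2.4e-14), and glp-1 0.19 ± 0.04 and -0.45 ± 0.04 (interaction 0.62 ± 0.06). glh-4 (interaction 0.72 ± 0.06) and prg-1 (interaction 0.69 ± 0.06) had the next largest positive differences. syp-3 (interaction -0.50 ± 0.06), syp-1 (interaction -0.45 ± 0.05) and alg-4 (interaction -0.57 ± 0.24, edgeR adjusted p = 0.0472) were negative. The alg-4 call was lost, at -0.41 to -0.58, when any of 11 libraries was left out: replicates 1 and 5 of old mutants at 15 °C, replicates 2, 3 and 5 of old mutants at 25 °C, replicates 3, 4 and 5 of old wild type at 15 °C, or replicates 1, 2 and 4 of old wild type at 25 °C.

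Temperature was compared within each genotype among old animals, where warmer groups were also collected on earlier days. In the wild type, members were mainly higher at 25 °C than at 20 °C: 26 higher and 1 lower of 40, where 63.7% of the genes tested were called, 30.1% higher and 33.6% lower. The 40 genes had a median of 0.19, against -0.02 for all genes, and 34 of 40 lay above the median of all genes. Values of these 2 groups are CPM scaled by TMM within the comparison, tested in edgeR. The calls covered the axis (5 higher and 0 lower of 5), synaptonemal (4 higher and 0 lower of 4), pairing (4 higher and 0 lower of 5) and recombination genes (3 higher and 0 lower of 4), with medians of 0.27, 0.25, 0.21 and 0.23. Other meiosis genes were also mainly higher (26 higher and 3 lower of 38).

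spo-11, the enzyme that makes meiotic breaks, had 98.2, 98.8, 89.7, 101 and 92.4 CPM in the wild type at 25 °C, against 62.5, 71.9, 63.7, 73.3 and 67.3 in the wild type at 20 °C. The 25 °C libraries were all higher (log2 fold change 0.49 ± 0.05 SE, edgeR adjusted p = 2.2e-08). glh-4 had 237, 232, 224, 224 and 226 CPM in the wild type at 25 °C, against 179.7, 163, 178, 154 and 180.2 in the wild type at 20 °C. glh-3 had 135, 138, 138, 138 and 138 CPM in the wild type at 25 °C, against 108, 104, 110.1, 98.1 and 107 in the wild type at 20 °C. Neither helicase had overlapping groups (log2 fold change 0.40 ± 0.04 SE, edgeR adjusted p = 3.04e-08 for glh-4; log2 fold change 0.37 ± 0.03 SE, edgeR adjusted p = 8.75e-09 for glh-3), and glh-1 was higher as well (0.35 ± 0.05).

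Stem cell genes were mixed in the wild type (2 higher and 1 lower of 7, median 0.06). glp-1 had 313, 311, 317, 311 and 315 CPM in the wild type at 25 °C, against 276, 273, 296, 255 and 285 in the wild type at 20 °C. Its 25 °C libraries lay within a narrow range above the others (log2 fold change 0.16 ± 0.04 SE, edgeR adjusted p = 0.000456). nos-3 was the lone member called lower, with 200.05, 204, 194, 187 and 198 CPM in the wild type at 25 °C, against 219, 220.1, 244, 223 and 221 in the wild type at 20 °C. There was no overlap (log2 fold change -0.21 ± 0.04 SE, edgeR adjusted p = 2.81e-05). Sperm markers (31 higher and 2 lower of 42), body wall muscle markers (9 higher and 0 lower of 10) and hypodermis markers (9 higher and 0 lower of 10) moved up with the members at 25 °C, and DNA replication genes counted 2 higher and 11 lower of 15; their part in the members' values was not tested.

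In the mutants the same temperatures split the members: 16 were higher and 19 lower of 40 at 25 °C, where 74.7% of the genes tested were called, 37.1% higher and 37.6% lower. The median of the members was -0.04, against 0.01 for all genes, and the shares called were near those of all genes. With library size alone the split was 22 higher and 12 lower, as the median of all genes moved to 0.23. Lower were stem cell genes (0 higher and 6 lower of 7; 1 higher and 6 lower with library size alone), P granule genes (1 higher and 4 lower of 7; 3 higher and 3 lower with library size alone) and MES genes (0 higher and 3 lower of 3; 1 higher and 1 lower with library size alone). Synaptonemal (4 higher and 0 lower of 4), axis (4 higher and 1 lower of 5), pairing (3 higher and 1 lower of 5) and recombination genes (3 higher and 1 lower of 4) were mainly higher.

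syp-1 had 253, 236, 257, 248 and 262 CPM in mutants at 25 °C, against 157, 148, 143, 143 and 149.5 in mutants at 20 °C. syp-3 had 74.4, 74.8, 81.4, 79.4 and 80.1 CPM in mutants at 25 °C, against 51.4, 46.5, 45.5, 48.4 and 47.9 in mutants at 20 °C. spo-11 had 112, 99.5, 123, 98.6 and 120.5 CPM in mutants at 25 °C, against 66.3, 66.0, 64.1, 68.5 and 72.8 in mutants at 20 °C. For these 3 meiotic genes every 25 °C library exceeded every 20 °C library (log2 fold change 0.75 ± 0.04 SE, edgeR adjusted p = 1.11e-16 for syp-1; log2 fold change 0.68 ± 0.04 SE, edgeR adjusted p = 9.86e-15 for syp-3; log2 fold change 0.69 ± 0.05 SE, edgeR adjusted p = 7.64e-11 for spo-11). rad-51 (0.40 ± 0.03), htp-2 (0.46 ± 0.04), syp-2 (0.41 ± 0.03) and zim-1 (0.32 ± 0.03) were higher too.

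nos-3 had 167, 167, 163, 163 and 180.2 CPM in mutants at 25 °C, against 304, 266, 277, 273 and 243 in mutants at 20 °C. fbf-2 had 18.6, 20.2, 19.9, 19.1 and 20.8 CPM in mutants at 25 °C, against 29.3, 32.2, 30.7, 31.9 and 30.4 in mutants at 20 °C. pgl-3 had 170.3, 173, 167, 165 and 169 CPM in mutants at 25 °C, against 262, 252, 253, 266 and 237 in mutants at 20 °C. The 25 °C libraries of each were all below the 20 °C libraries (log2 fold change -0.71 ± 0.04 SE, edgeR adjusted p = 2.18e-13 for nos-3; log2 fold change -0.66 ± 0.05 SE, edgeR adjusted p = 5.48e-13 for fbf-2; log2 fold change -0.61 ± 0.03 SE, edgeR adjusted p = 5.1e-15 for pgl-3). glp-1 had 247, 247, 258, 225 and 282 CPM in mutants at 25 °C, against 348, 341, 335, 340.1 and 322 in mutants at 20 °C. It too fell without overlap (log2 fold change -0.44 ± 0.04 SE, edgeR adjusted p = 5.13e-10), in contrast to its rise in the wild type, and the interaction test above gives that difference. gld-1 (-0.59 ± 0.04), fbf-1 (-0.57 ± 0.05) and chk-2 (-0.43 ± 0.06) were also lower, and gld-3 did not pass (-0.01 ± 0.03).

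Beside these values, DNA replication genes were 2 higher and 13 lower of 15 at 25 °C in mutants, among them the ribonucleotide reductase gene rnr-1 (log2 fold change -1.25 ± 0.04, adjusted p = 1.31e-20, edgeR) and mcm-2 (log2 fold change -1.06 ± 0.04, adjusted p = 5.49e-20, edgeR). Oocyte markers were 1 higher and 21 lower of 25, sperm markers 34 higher and 4 lower of 51 and intestine markers 2 higher and 7 lower of 11. Hypodermis markers summed to 13.4 to 16.7 CPM in mutants at 25 °C, against 29.6 to 33.4 CPM in mutants at 20 °C. These lists are at TMM scaling and were not counted with library size alone. Their part in the members' values was not tested.

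**Figure D3:**
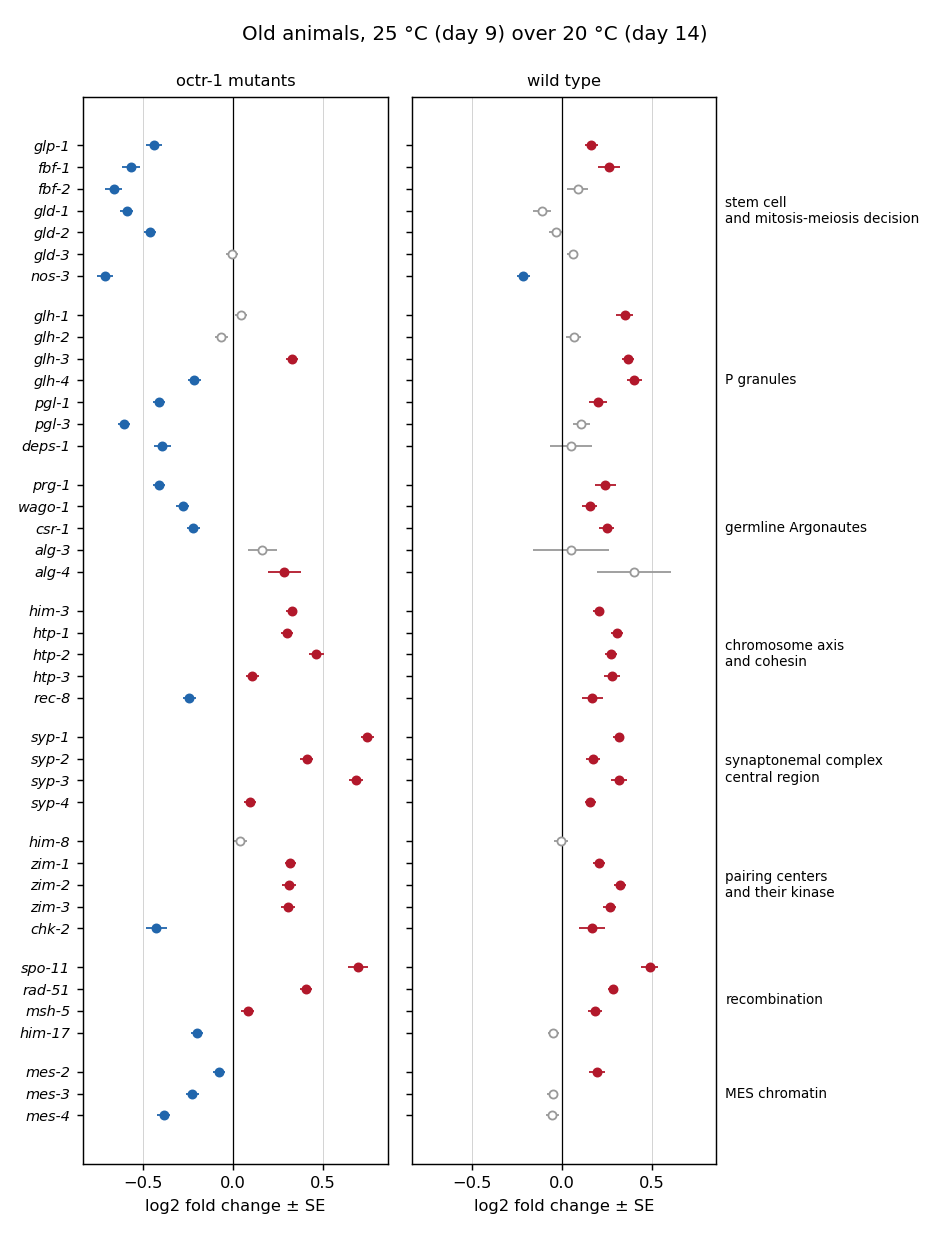
log2 fold change ± SE (edgeR) of the 40 genes in old animals at 25 °C (day 9) over 20 °C (day 14), in octr-1 mutants and in wild type. Filled points were called (red higher, blue lower at 25 °C), open grey points were not; glp-1 lies left of 0 in mutants (-0.44) and right of it in wild type (0.16), while syp and recombination genes lie right of 0 in both genotypes except him-17.

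Next, old animals at 15 °C were set against those at 20 °C. In the wild type 7 members were higher and 13 lower of 40 at 15 °C, where 63.9% of the genes tested were called, 30.5% higher and 33.4% lower; with library size alone the split was 14 higher and 9 lower. The share called lower was near that of all genes. chk-2 had 706, 567, 649.7, 681 and 637 normalized reads in the wild type at 15 °C, against 488, 396, 469, 383 and 486 in the wild type at 20 °C. fbf-2 had 905, 828, 906, 882 and 892 normalized reads in the wild type at 15 °C, against 725, 670.4, 699, 589 and 759 in the wild type at 20 °C. fbf-1 had 1559, 1497, 1456, 1362 and 1424 normalized reads in the wild type at 15 °C, against 1246, 1058, 1219, 1015 and 1293 in the wild type at 20 °C. The 15 °C libraries were above the others in these 3 genes (log2 fold change 0.55 ± 0.08 SE, limma adjusted p = 6.86e-06 for chk-2; log2 fold change 0.36 ± 0.06 SE, limma adjusted p = 6.41e-05 for fbf-2; log2 fold change 0.33 ± 0.06 SE, limma adjusted p = 0.000196 for fbf-1), and alg-4 was higher with overlap (0.80 ± 0.24). gld-3 had 10235, 10860.4, 10112, 10506 and 10201 normalized reads in the wild type at 15 °C, against 14088, 15050.4, 15202, 15146 and 14461 in the wild type at 20 °C. spo-11 had 1394, 1665, 1398, 1735 and 1549.8 normalized reads in the wild type at 15 °C, against 1930.3, 2240.0, 1973, 2285 and 2075 in the wild type at 20 °C. pgl-3 had 5589.6, 4940.5, 5702, 5195 and 5138 normalized reads in the wild type at 15 °C, against 7301, 7097, 7006, 5938 and 7346 in the wild type at 20 °C. These were the deepest falls without overlap (log2 fold change -0.51 ± 0.04 SE, limma adjusted p = 5.35e-10 for gld-3; log2 fold change -0.44 ± 0.07 SE, limma adjusted p = 1.03e-05 for spo-11; log2 fold change -0.38 ± 0.06 SE, limma adjusted p = 8.75e-06 for pgl-3). glp-1 had 9040.3, 8916, 8796, 8658 and 8304 normalized reads in the wild type at 15 °C, against 8512, 8498, 9179, 7943 and 8772 in the wild type at 20 °C. The groups overlapped and the test was not passed (log2 fold change 0.03 ± 0.04 SE, limma adjusted p = 0.57).

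In mutants at 15 °C, against 20 °C, 8 members were higher and 18 lower of 40, where 66.5% of the genes tested were called, 31.7% higher and 34.8% lower. spo-11 had 1659, 1568, 1503, 1476 and 1523 normalized reads in mutants at 15 °C, against 2024, 2014, 1959.5, 2088 and 2207 in mutants at 20 °C. syp-2 had 1789, 1670.0, 1753, 1703 and 1638 normalized reads in mutants at 15 °C, against 2082, 2162, 2090.1, 2089.6 and 2061 in mutants at 20 °C. deps-1 had 6768, 7317, 7999, 7761 and 7721 normalized reads in mutants at 15 °C, against 9182, 9632, 9213, 8718 and 8933 in mutants at 20 °C. All 15 °C libraries were below the 20 °C libraries (log2 fold change -0.41 ± 0.04 SE, limma adjusted p = 3.11e-08 for spo-11; log2 fold change -0.29 ± 0.03 SE, limma adjusted p = 3.54e-07 for syp-2; log2 fold change -0.28 ± 0.04 SE, limma adjusted p = 4.49e-06 for deps-1). prg-1 had 16958, 18692, 19239, 19056 and 18186 normalized reads in mutants at 15 °C, against 15359, 15953, 15859, 15695 and 15168 in mutants at 20 °C. chk-2 had 662, 667, 699.9, 719 and 649 normalized reads in mutants at 15 °C, against 608, 522, 616, 563 and 574 in mutants at 20 °C. alg-3 had 229, 223, 279.7, 217 and 224 normalized reads in mutants at 15 °C, against 191, 199.6, 163, 217 and 205 in mutants at 20 °C. Their values at 15 °C lay above those at 20 °C, although in alg-3 the closest libraries of the 2 groups were almost equal (log2 fold change 0.24 ± 0.03 SE, limma adjusted p = 5.09e-06 for prg-1; log2 fold change 0.24 ± 0.05 SE, limma adjusted p = 0.000665 for chk-2; log2 fold change 0.26 ± 0.09 SE, limma adjusted p = 0.0124 for alg-3). glp-1 had 9966, 11260.5, 10849, 10648 and 10224 normalized reads in mutants at 15 °C, against 10643, 10417, 10234, 10372 and 9769 in mutants at 20 °C. It did not pass (log2 fold change 0.04 ± 0.04 SE, limma adjusted p = 0.316).

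Markers of other cells moved between 15 and 20 °C in both genotypes. Oocyte markers summed to 13159 to 15458 CPM in mutants at 15 °C, against 18701 to 20771 CPM in mutants at 20 °C, and to 11939.6 to 14025 CPM in the wild type at 15 °C, against 19186 to 21314 CPM in the wild type at 20 °C. Intestine markers summed to 281 to 427 CPM in mutants at 15 °C, against 998 to 1121 CPM in mutants at 20 °C, and to 381 to 446 CPM in the wild type at 15 °C, against 1193 to 1446 CPM in the wild type at 20 °C. Neuron markers were higher at 15 °C in mutants (10 higher and 0 lower of 10) and in the wild type (10 higher and 0 lower of 10). Their part in the members' values was not tested.

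The widest span, 15 against 25 °C, gave 5 members higher and 29 lower of 40 in the wild type at 15 °C, where 79% of the genes tested were called, 38.2% higher and 40.8% lower. Their median log2 fold change was -0.20, against -0.02 for all genes. P granule (0 higher and 7 lower of 7), axis (0 higher and 5 lower of 5) and synaptonemal genes (0 higher and 4 lower of 4) were lower at 15 °C. spo-11 had 1404, 1664, 1392, 1732 and 1552 normalized reads in the wild type at 15 °C, against 3069.7, 3093, 2815, 3179 and 2897 in the wild type at 25 °C. zim-2, which pairs an autosome, had 1866, 1931, 1669, 1968 and 1819 normalized reads in the wild type at 15 °C, against 2773, 2854, 2777, 2896 and 2798 in the wild type at 25 °C. gld-3 had 10308, 10852, 10071, 10488 and 10213 normalized reads in the wild type at 15 °C, against 15628, 15972, 15865, 15842 and 15468 in the wild type at 25 °C. The 2 temperatures did not overlap in these genes (log2 fold change -0.96 ± 0.06 SE, limma adjusted p = 4.19e-11 for spo-11; log2 fold change -0.61 ± 0.04 SE, limma adjusted p = 8.87e-12 for zim-2; log2 fold change -0.60 ± 0.03 SE, limma adjusted p = 9.47e-15 for gld-3). chk-2 had 711, 566, 647, 679 and 638 normalized reads in the wild type at 15 °C, against 476, 484, 535, 526 and 528 in the wild type at 25 °C. fbf-2 had 912, 827, 903, 880.5 and 893 normalized reads in the wild type at 15 °C, against 759, 763, 713, 748 and 762 in the wild type at 25 °C. nos-3 had 7371, 6684, 7189, 6911 and 6764 normalized reads in the wild type at 15 °C, against 6255, 6389, 6083, 5867 and 6216 in the wild type at 25 °C. These 3 were higher at 15 °C (log2 fold change 0.34 ± 0.06 SE, limma adjusted p = 2.22e-05 for chk-2; log2 fold change 0.24 ± 0.04 SE, limma adjusted p = 4.5e-05 for fbf-2; log2 fold change 0.18 ± 0.03 SE, limma adjusted p = 3.49e-05 for nos-3). glp-1 had 9105, 8909.5, 8759.8, 8644 and 8313 normalized reads in the wild type at 15 °C, against 9786, 9735, 9933, 9768 and 9881 in the wild type at 25 °C. It was lower at 15 °C without overlap (log2 fold change -0.17 ± 0.03 SE, limma adjusted p = 1.22e-05).

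Mutants at 15 °C, against 25 °C, had 16 members higher and 18 lower of 40, where 78.9% of the genes tested were called, 38.6% higher and 40.4% lower; library size alone gave 11 higher and 22 lower, with a median of all genes of -0.19. The shares called were near those of all genes. nos-3 had 7931, 9144, 8486, 8733 and 9215 normalized reads in mutants at 15 °C, against 5185, 5185, 5044, 5025 and 5598 in mutants at 25 °C. fbf-2 had 936, 1034, 1094, 1059 and 990.0 normalized reads in mutants at 15 °C, against 578, 626, 613, 588 and 647 in mutants at 25 °C. fbf-1 had 1683, 1733, 1946, 1734 and 1750.5 normalized reads in mutants at 15 °C, against 1123, 1137, 1139, 971 and 1281 in mutants at 25 °C. Stem cell genes were thus higher at 15 °C (log2 fold change 0.74 ± 0.04 SE, limma adjusted p = 9.79e-13 for nos-3; log2 fold change 0.74 ± 0.05 SE, limma adjusted p = 2.07e-11 for fbf-2; log2 fold change 0.65 ± 0.06 SE, limma adjusted p = 1.29e-09 for fbf-1), 6 higher and 1 lower of 7 in all. glp-1 had 10028, 11364, 11000.2, 10793 and 10379.7 normalized reads in mutants at 15 °C, against 7646, 7657, 7947, 6939 and 8745 in mutants at 25 °C. It too was higher (log2 fold change 0.46 ± 0.05 SE, limma adjusted p = 2.45e-08). spo-11 had 1669, 1583, 1524, 1496 and 1547 normalized reads in mutants at 15 °C, against 3480.1, 3085, 3781, 3042 and 3742 in mutants at 25 °C. syp-3 had 1469, 1286, 1245, 1231 and 1272 normalized reads in mutants at 15 °C, against 2307, 2319, 2512, 2450.1 and 2487 in mutants at 25 °C. syp-2 had 1800.1, 1685, 1777, 1726 and 1663 normalized reads in mutants at 15 °C, against 2843, 2757, 2898, 2982 and 2815 in mutants at 25 °C. These 3 meiotic genes stood lower at 15 °C (log2 fold change -1.13 ± 0.06 SE, limma adjusted p = 2.29e-13 for spo-11; log2 fold change -0.89 ± 0.05 SE, limma adjusted p = 1.97e-13 for syp-3; log2 fold change -0.72 ± 0.04 SE, limma adjusted p = 1.38e-13 for syp-2), with 0 higher and 4 lower of 4 for the synaptonemal, 1 higher and 4 lower of 5 for the axis, 1 higher and 4 lower of 5 for the pairing and 1 higher and 3 lower of 4 for the recombination genes. chk-2 (0.64 ± 0.06), him-17 (0.19 ± 0.04) and rec-8 (0.20 ± 0.04) were higher at 15 °C. These temperature comparisons share libraries within each genotype. Intestine markers were lower at 15 °C than at 25 °C in mutants (2 higher and 9 lower of 11) and in the wild type (0 higher and 11 lower of 11), and neuron markers higher in mutants (8 higher and 0 lower of 10) and in the wild type (10 higher and 0 lower of 10). Oocyte markers counted 10 higher and 10 lower of 25 in mutants and 1 higher and 23 lower of 25 in the wild type. Their part in the members' values was not tested.

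**Figure D4:**
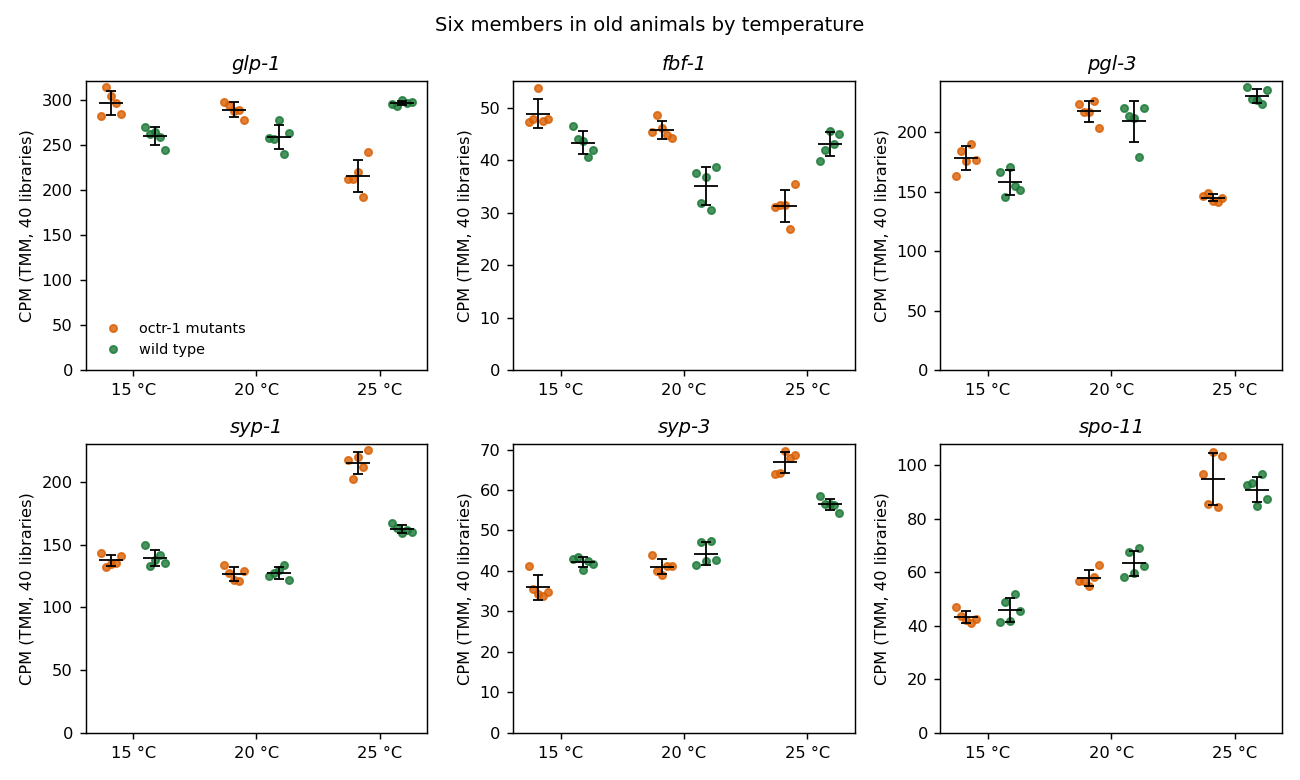
Level of 6 members in each library of old animals at 15, 20 and 25 °C (CPM, TMM over 40 libraries), octr-1 mutants beside wild type. Points are libraries and bars mean ± SD (n = 5); at 25 °C glp-1 averaged 215.7 CPM in mutants and 296 CPM in wild type, while at 15 and 20 °C the mutants averaged 296 and 289 CPM, against 259.6 and 258.7 CPM in wild type.

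Age was compared at 20 °C within each genotype, day 14 against young adults, in edgeR on CPM scaled by TMM. In the wild type old animals had lower RNA of most members, deepest in csr-1, pgl-3 and glh-1: 3 members were higher and 31 lower of 40, where 85.2% of the genes tested were called, 45.9% higher and 39.2% lower. The median over the 40 genes was -0.43, against 0.09 for all genes, and the share called lower was well above that of all genes. This direction depends on scaling: with library size alone the median of all genes moved to 0.67, that of the members to 0.15, and the split turned to 22 higher and 10 lower. In either scaling 5 of 40 members lay above the median of all genes, and none of the 7 stem cell genes or 7 P granule genes did.

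csr-1, the Argonaute that targets germline-expressed genes, had 351, 324, 356, 311 and 365 CPM in old wild type, against 915, 955, 941, 923 and 979 in young wild type. pgl-3 had 189, 183, 181, 153 and 190.1 CPM in old wild type, against 467, 466, 453, 475 and 499.8 in young wild type. glh-1 had 410.5, 386, 427, 347 and 413 CPM in old wild type, against 997, 979, 957, 983 and 1031 in young wild type. Old and young libraries lay far apart in all 3 (log2 fold change -1.44 ± 0.05 SE, edgeR adjusted p = 2.22e-16 for csr-1; log2 fold change -1.37 ± 0.05 SE, edgeR adjusted p = 2.4e-15 for pgl-3; log2 fold change -1.29 ± 0.05 SE, edgeR adjusted p = 4.65e-15 for glh-1). With library size alone the falls were smaller (-0.86 for csr-1, -0.79 for pgl-3 and -0.71 for glh-1). wago-1 (-1.15 ± 0.05), glh-4 (-1.15 ± 0.05), chk-2 (-1.12 ± 0.07) and glh-2 (-1.04 ± 0.04) fell by more than 1 log2 unit as well. P granule genes were 0 higher and 7 lower of 7, and 1 higher and 5 lower with library size alone. The axis genes were 0 higher and 4 lower of 5 (4 higher and 0 lower with library size alone), the pairing genes 0 higher and 4 lower of 5 (2 higher and 1 lower) and the recombination genes 0 higher and 4 lower of 4 (4 higher and 0 lower).

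Stem cell genes were 0 higher and 7 lower of 7 (median -0.55; 2 higher and 2 lower with library size alone). glp-1 had 221, 219, 237, 205 and 227 CPM in old wild type, against 246, 276, 262, 260.4 and 263 in young wild type. The old libraries were all lower (log2 fold change -0.21 ± 0.04 SE, edgeR adjusted p = 9.88e-05), but with library size alone the sign turned (0.37). mes-3 had 138, 145, 141, 149 and 140.4 CPM in old wild type, against 80.7, 84.8, 83.7, 79.7 and 75.2 in young wild type. syp-1 had 107, 109, 111, 114 and 105 CPM in old wild type, against 83.0, 87.2, 87.7, 85.2 and 81.1 in young wild type. mes-4 had 150.5, 140.1, 148, 139.8 and 153 CPM in old wild type, against 133, 134, 127, 131 and 126 in young wild type. These 3 rose with age without overlap (log2 fold change 0.85 ± 0.04 SE, edgeR adjusted p = 1.39e-13 for mes-3; log2 fold change 0.39 ± 0.04 SE, edgeR adjusted p = 2.64e-08 for syp-1; log2 fold change 0.19 ± 0.04 SE, edgeR adjusted p = 0.00019 for mes-4), unlike the other synaptonemal genes, of which syp-2 (-0.53 ± 0.05), syp-3 (-0.43 ± 0.05) and syp-4 (-0.38 ± 0.04) fell, at TMM scaling. With library size alone the values were 1.43 for mes-3, 0.97 for syp-1 and 0.77 for mes-4. At that scaling syp-2, syp-3 and syp-4 were not lower in old wild type, so their fall, unlike the rise of syp-1, depended on scaling.

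In mutants 10 members were higher and 29 lower of 40 in old animals, where 85.5% of the genes tested were called, 45.2% higher and 40.3% lower; with library size alone the split was 24 higher and 7 lower, as the median of all genes moved to 0.61. The 40 genes had a median of -0.32, against 0.07 for all genes. csr-1 had 386, 375, 372, 363 and 358 CPM in old mutants, against 864, 860.3, 844, 848 and 871 in young mutants. pgl-3 had 202, 193, 194, 204 and 182 CPM in old mutants, against 444, 451, 421, 447 and 467 in young mutants. glh-1 had 416, 442, 426, 419 and 414 CPM in old mutants, against 968, 916, 915, 926 and 996 in young mutants. As in the wild type, these were the deepest falls (log2 fold change -1.18 ± 0.03 SE, edgeR adjusted p = 2.8e-19 for csr-1; log2 fold change -1.17 ± 0.03 SE, edgeR adjusted p = 2.82e-18 for pgl-3; log2 fold change -1.13 ± 0.03 SE, edgeR adjusted p = 2.25e-18 for glh-1), and with library size alone the values were -0.65, -0.63 and -0.60.

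alg-3 had 4.82, 5.01, 4.09, 5.44 and 5.19 CPM in old mutants, against 2.32, 1.2, 2.2, 2.07 and 3.21 in young mutants. alg-4 had 3.23, 3.89, 3.43, 4.44 and 4.07 CPM in old mutants, against 2.01, 1.42, 2.68, 2.68 and 2.88 in young mutants. mes-3 had 151, 154, 153, 148 and 151 CPM in old mutants, against 86.2, 81.7, 88.9, 86.9 and 80.4 in young mutants. Every old mutant library was above every young one in these genes (log2 fold change 1.18 ± 0.16 SE, edgeR adjusted p = 1.54e-06 for alg-3; log2 fold change 0.73 ± 0.14 SE, edgeR adjusted p = 0.000104 for alg-4; log2 fold change 0.86 ± 0.03 SE, edgeR adjusted p = 3.65e-16 for mes-3; 1.72, 1.26 and 1.39 with library size alone). In the wild type alg-3 (0.49 ± 0.31) and alg-4 (0.11 ± 0.29) did not pass. glp-1 had 268, 262, 257, 261 and 247 CPM in old mutants, against 249, 242, 241, 245 and 231 in young mutants. The groups overlapped although the test was passed (log2 fold change 0.12 ± 0.03 SE, edgeR adjusted p = 0.00103), and with library size alone the value was 0.66. rec-8 (0.42 ± 0.03), prg-1 (0.32 ± 0.03), mes-4 (0.29 ± 0.03), mes-2 (0.21 ± 0.03) and fbf-1 (0.14 ± 0.04) were also higher in old mutants.

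Other lists in old against young animals counted 7 higher and 28 lower of 38 for meiosis in mutants and 3 higher and 30 lower of 38 in the wild type, and 2 higher and 13 lower of 17 for P granules and small RNA in mutants and 2 higher and 14 lower of 17 in the wild type. Sperm markers were 8 higher and 37 lower of 49 in mutants and 6 higher and 33 lower of 43 in the wild type, and oocyte markers 2 higher and 21 lower of 25 in mutants and 2 higher and 22 lower of 25 in the wild type. Body wall muscle markers were all lower in both genotypes (0 higher and 10 lower of 10 and 0 higher and 10 lower of 10), as were intestine markers (0 higher and 11 lower of 11 and 0 higher and 11 lower of 11), and neuron markers mainly higher (9 higher and 0 lower of 10 and 9 higher and 0 lower of 10). Hypodermis markers had sums of 29.6 to 33.4 CPM in old mutants, against 1085 to 1425 CPM in young mutants, and of 50.3 to 67.1 CPM in old wild type, against 830.5 to 1287 CPM in young wild type. These counts and sums are at TMM scaling. They were not taken with library size alone, under which the members' split turned to mainly higher in both genotypes. The part of the makeup of tissues in the members' values was not tested.

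**Figure D5:**
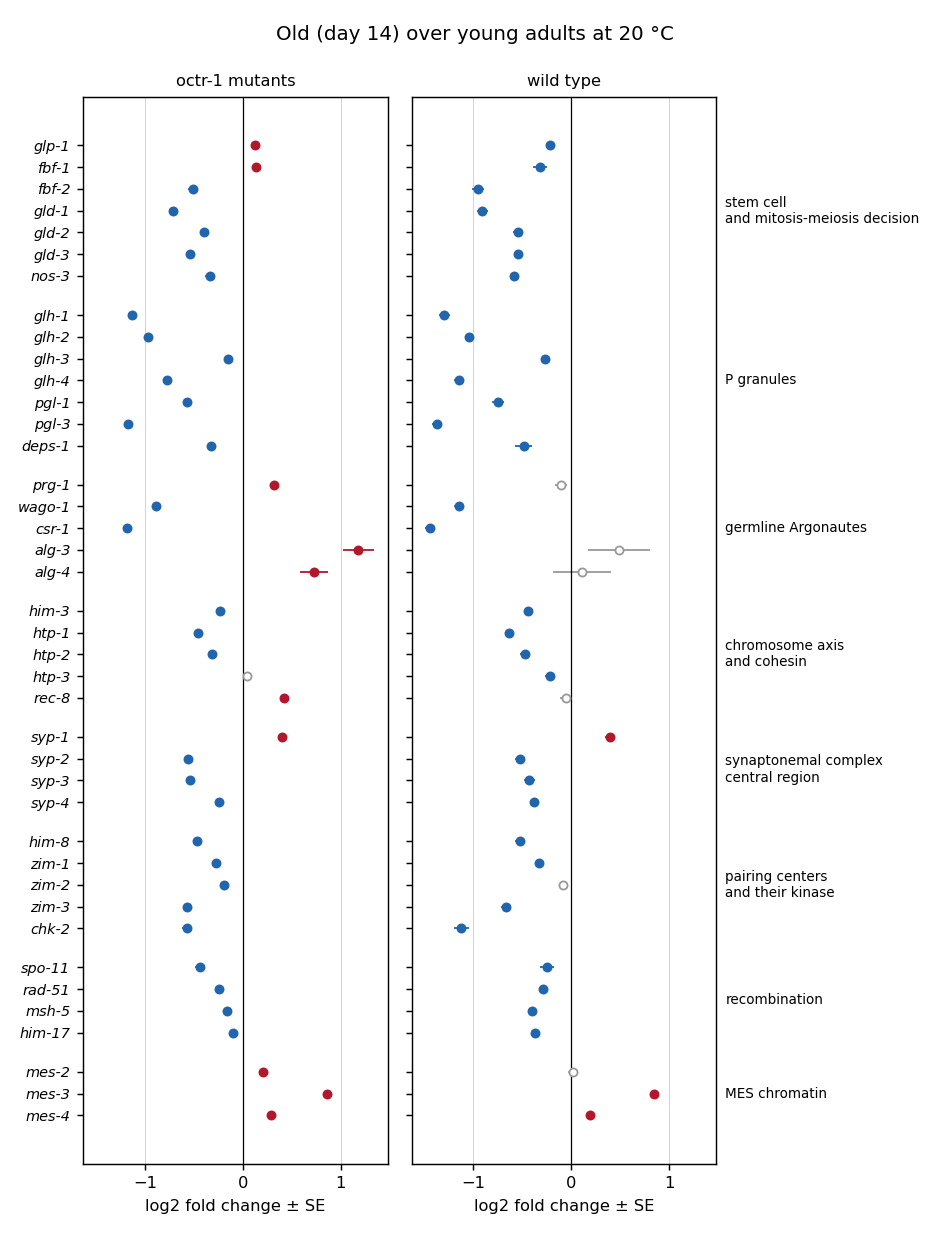
log2 fold change ± SE (edgeR, TMM) of the 40 genes in old (day 14) over young adults at 20 °C, in octr-1 mutants and in wild type. Filled points were called (red higher, blue lower in old animals), open grey points were not; csr-1, pgl-3 and glh-1 lie farthest left in both genotypes, and mes-3 lies right of 0 in both.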

How the data were processed

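Polyadenylated RNA of whole animals was sequenced in 40 libraries (8 groups of 5) with a strand-marking library kit, per the labels' protocols. Per the submitters' processing notes, the tools included HISAT2 2.2.1, featureCounts and DESeq2 1.31.16, with build ce10. The authors deposited 9 tables, 1 per comparison, each with 10 columns of normalized counts (a signal in reads divided by a size factor), a mean score, a log2 fold change and p-values, per the file headers. The deposited log2 fold changes and p-values were used only to check signs, and the deposited mean score was not used. Dividing by the value of 1 read gave whole reads for 100% of values within 0.001 reads in all 90 columns, with size factors of 0.794 to 1.25 and 27.9 to 41 M reads per library.

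In the table of old mutants at 25 against 20 °C, the 10 columns held values that other tables give to the opposite temperature, and 0% of 2269 genes past 2-fold had the authors' sign with the names as given (100% in the other 8 tables), so its libraries were taken from other tables.

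Where a table held both groups, log2(normalized count + 1) was tested with limma 3.58.1 (trend, robust). Fold changes on this scale understate those of low genes. Wild type at 25 against 20 °C, mutants at 25 against 20 °C, old against young, and the interactions were tested on recovered reads with edgeR 4.0.16 (quasi-likelihood, TMM) in R 4.3.3. Genes were kept where 5 or more libraries reached a value of 10, and p-values were adjusted by Benjamini-Hochberg over all genes tested. Simulated data were used to check the genotype test in young animals, old against young wild type, and the interaction at 25 minus 20 °C. The other comparisons were not checked in this way. The simulations raised and lowered equal numbers of genes, so they do not test scaling under a broad shift. The annotation in hand is of another build than ce10, so it gave names (38832 features matched), chromosomes and overlaps but no coordinates. It also gave the exon lengths behind the RPKM values. Counting intervals are not given because every value has replicates.

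The members and lists were chosen with earlier results of these data known. Values of every library are given for glp-1 and, per comparison, for up to 3 called members of largest rise and 3 of deepest fall whose groups did not overlap; alg-3 and alg-4 in young animals were added after their values were seen. Alternatives were DESeq2 1.42.0, edgeR or other size factors, library size only, a pseudocount of 0.1, no filter, a replicate block, and leaving out each library.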

Additional observations from a re-analysis of the deposited data

Results flagged for a closer look

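Single libraries stood apart from the other 4 of their group in 12 of 208 groups examined (5.77%, 26 named members in 8 groups, Dixon's test at the 95% level), and chance flags about 1 in 20. Levels here are CPM scaled by TMM over the 40 libraries. The test looks for 1 library apart from 4 and misses 2 that deviate together. In old wild type at 20 °C, rec-8 was low in both replicates 2 and 4 (91.9 and 86.7 CPM, the others 108 to 111), without a flag. In old mutants at 15 °C, replicate 3 was high in fbf-1 (53.8 CPM, the others 47.3 to 48.0) and alg-3 (7.84 CPM, the others 6.03 to 6.47). Replicate 1 of that group was high in syp-3 (41.3 CPM, the others 33.8 to 35.6) and him-8 (56.6 CPM, the others 49.5 to 51.1). In old mutants at 20 °C, rec-8 was low in replicate 1 (121 CPM, the others 127 to 129) and syp-2 high in replicate 2 (61.0 CPM, the others 58.2 to 58.6). In old mutants at 25 °C, glh-1 was low in replicate 3 (466 CPM, the others 496 to 503), and in young mutants glp-1 was low in replicate 5 (255 CPM, the others 271 to 276). In old wild type at 20 °C, nos-3 was high in replicate 3 (228 CPM, the others 204 to 209.8) and pgl-3 low in replicate 4 (179 CPM, the others 212 to 221). In old wild type at 25 °C, fbf-2 was low in replicate 3 (21.5 CPM, the others 22.7 to 23.0) and gld-2 low in replicate 4 (223 CPM, the others 237 to 238).

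The octr-1 effect (log2, mutants over wild type) differed between ages or temperatures by edgeR's interaction test in several named members. Old minus young at 20 °C, the difference was 0.58 for chk-2, 0.50 for rec-8, 0.48 for fbf-1 and 0.36 for glp-1. Between 25 and 20 °C it was 0.43 for syp-1, 0.37 for syp-3 and 0.24 for syp-2, and -0.83 for fbf-1, -0.75 for fbf-2, -0.71 for pgl-3 and -0.60 for glp-1. Between 15 and 20 °C it was 0.24 for gld-3 and 0.16 for mes-3, and -0.33 for chk-2, -0.28 for fbf-2 and -0.25 for fbf-1. Between 15 and 25 °C it was 0.82 for pgl-3, 0.72 for glh-4, 0.69 for prg-1 and 0.62 for glp-1, and -0.57 for alg-4, -0.50 for syp-3 and -0.45 for syp-1.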

How the results depend on the processing

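Of 551 values of single members under other settings, 537 kept their direction and side of the threshold, 4 lost the call and 10 changed sign; of 1230 with 1 library left out, 1205 kept both. Of 178 counts and shares, 166 stayed within 1.5 times of their value or 10 percentage points. Library size as the only scaling moved the share of called members that were higher to 23.1% in young mutants against wild type (13 called), 57.1% in old mutants against wild type at 25 °C, 60.9% in wild type at 15 against 20 °C, 33.3% in mutants at 15 against 25 °C, 64.7% in mutants at 25 against 20 °C, 68.8% in old against young wild type, 77.4% in old against young mutants, 48.4% for the genotype effect at 25 minus 20 °C and 48.6% at 15 minus 25 °C. It also turned glp-1 in old against young wild type to 0.37 and ended the glp-1 call in young mutants (log2 fold change -0.09, adjusted p = 0.0617). With column names as given in the table of both mutant groups, the 25 against 20 °C values reversed by construction: syp-1 -0.75, spo-11 -0.69, syp-3 -0.69, nos-3 0.71, fbf-2 0.66, pgl-3 0.60 and glp-1 0.44. For the genotype effect at 15 minus 20 °C, the share higher was 37.5% with DESeq2 and 50% with edgeR's RLE factors, and with 1 library left out 5 to 10 members were called, 22.2 to 50% of them higher. There glp-1, never called, was 0.026 with DESeq2 and with RLE and -0.033 to 0.021 with 1 library left out (0.017, 0.0040, 0.0085, 0.0056, 0.0048, 0.0092, 0.013, 0.0074 and 0.021 where positive). The mes-3 call was lost without the filter (adjusted p = 0.0555) and the fbf-1 call with RLE (adjusted p = 0.0528). The alg-4 call at 15 minus 25 °C was lost without the filter (adjusted p = 0.125). The cause of these shifts was not tested. In no comparison was the correlation of deviations over 0.1 in all 5 same-numbered pairs (at most 3 of 5). In young animals all 5 were positive, 0.032 to 0.210. Libraries were therefore not treated as paired. With a replicate block none of 131 results shifted: single members kept their call and direction, and counts and shares stayed within 1.5 times or 10 percentage points. Counts of called members were 0.889 to 1.15 times those without the block. At 12 to 271 reads per library, alg-3 and alg-4 are the members most limited by depth.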
